A study of Rattus norvegicus with 12 samples.

Results

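The genes described here are 8 components and regulators of the complement system (C3, C1r, C1s, C2, Cfb, Cd55, Cd59 and Serping1), taken by their symbols from a raw count table of 33294 genes. All 8 were listed, and 7 passed the filter on low counts and were tested, with Serping1 the exception. The libraries came from PAC1, a single rat cell line of pulmonary artery smooth muscle, so the data describe 1 line in culture. According to the study, the cells of all groups were cultured under conditions that promote a differentiated state. It reports that these controls were less differentiated than those of its other sequencing experiment. Cells were reverse transfected with 90 pmol of siRNA, transfected again with the same amount after 24 h and harvested 48 h later according to the labels, while the study describes longer intervals. The 4 groups of 3 libraries received a control siRNA (named C2 in the labels, which is unrelated to the gene C2) or a targeting siRNA (RBPMS, RBFOX2 or QKI), so control cells had also been transfected. All of them bind RNA and control splicing, RBPMS mainly in muscle cells and RBFOX2 and QKI in a wider range of tissues. No other allele or agent is named, and all groups share the line and the transfection.

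Complement is a protease cascade that tags and lyses foreign or damaged cells. In the classical pathway, C1r activates C1s within the C1 complex, C1s cleaves C4 and C2, and SERPING1 (C1 inhibitor) inactivates both proteases. In the alternative pathway factor B, encoded by Cfb, provides the protease in place of C2, and both pathways meet in the cleavage of C3. Host cells protect themselves with surface proteins. CD55 speeds the decay of the C3-cleaving enzymes and CD59 stops assembly of the membrane attack complex. The liver secretes most of the circulating components, but many other cells, including vascular ones, make some of them locally.

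Library totals lay between 111 and 152 M counts. Each siRNA target was lower in its own knockdown than in control: Rbpms went from 40.7 ± 2.60 to 7.21 ± 0.301 CPM, Rbfox2 from 154 ± 4.37 to 37.3 ± 0.943 CPM and Qk, the symbol of QKI, from 233 ± 7.04 to 26.6 ± 0.649 CPM (mean ± SD, n = 3). The targets also moved in other knockdowns. Rbpms was at 56.9% of control in RBFOX2 and 71.3% in QKI knockdown, and Qk at 74.5% in RBFOX2 and 113% in RBPMS knockdown, so the knockdowns do not differ in 1 target alone. CPM denotes counts scaled by library totals that were adjusted with a TMM factor per library. These factors ran from 0.948 (RBPMS-KD 2) to 1.05 (QKI-KD 1). CPM is not corrected for gene length, so levels are compared between libraries and not between genes. The summed level of 6 smooth muscle markers was 1971 to 2036 CPM in control, 937 to 1058 CPM in RBPMS, 668 to 771 CPM in RBFOX2 and 1329 to 1413 CPM in QKI knockdown. Acta2 and Tagln made up most of that sum. In RBPMS, RBFOX2 and QKI knockdown 4, 4 and 3 of the 6 markers fell and 2, 1 and 2 rose. Among all genes tested 29.0%, 30.1% and 34.0% fell and 30.4%, 30.1% and 32.9% rose. Myh11 was up by 1.05 in RBFOX2 knockdown, and Des by 0.65 in RBPMS and by 0.98 in QKI knockdown (log2 fold changes). Of the leukocyte markers, Tyrobp had no counts and Ptprc at most 4 in any library, but Cd14, Csf1r and Cd68 were expressed and rose in some knockdowns. Of the hepatocyte markers Alb had at most 2 counts, while Tf, at 0.352 CPM in control, rose by 1.42, 1.91 and 1.23, and Apoa1, at 0.218 CPM in control, by 0.91, 1.28 and 2.35. The part of these shifts in the results below was not tested. In bulk RNA, fewer cells that express a gene and less RNA of it per cell cannot be told apart.

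For 3 of the 8 genes a promoter sequence was at hand, and these are shown because C/EBP factors are known regulators of acute phase genes such as C3. Each is the 250 bases before the RefSeq start on the rat assembly GRCr8, read 5′ to 3′ along the gene: C3 at chr9:2201340-2201589 on the minus strand, C1r at chr4:159098763-159099012 on the plus strand and Cd55 at chr13:44438102-44438351 on the minus strand. Capitals mark matches to the C/EBP motif TTGCNNAA on either strand.
C3: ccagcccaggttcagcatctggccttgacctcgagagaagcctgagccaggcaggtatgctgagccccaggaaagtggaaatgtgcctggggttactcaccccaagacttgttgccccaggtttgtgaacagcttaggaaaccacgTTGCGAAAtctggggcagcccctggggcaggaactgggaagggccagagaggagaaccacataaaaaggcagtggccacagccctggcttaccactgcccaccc
C1r: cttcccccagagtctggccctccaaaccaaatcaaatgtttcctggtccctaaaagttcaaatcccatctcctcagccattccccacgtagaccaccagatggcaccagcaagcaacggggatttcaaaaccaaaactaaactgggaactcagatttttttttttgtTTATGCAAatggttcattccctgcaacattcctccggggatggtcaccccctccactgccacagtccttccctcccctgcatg
Cd55: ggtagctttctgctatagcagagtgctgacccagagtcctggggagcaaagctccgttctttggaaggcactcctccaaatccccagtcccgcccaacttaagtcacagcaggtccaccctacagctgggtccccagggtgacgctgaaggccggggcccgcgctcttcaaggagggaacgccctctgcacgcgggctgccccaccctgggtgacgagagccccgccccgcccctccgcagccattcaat
The motif occurred in C3, 104 to 97 bases before the start on the strand of the gene, and in C1r, 83 to 76 bases before the start on the opposite strand. It was found in 9.196% of 27457 rat promoters of this length. The interferon-gamma activated site TTCNNNGAA (7.524% of promoters), the interferon-stimulated response element (GAAA, NN and GAAA in a row, 3.285%) and a kappaB motif (4.272%), searched on both strands, matched none of the 3 windows, and none of the motifs searched matched Cd55. A match is a run of letters and does not show binding.

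C1r and C1s encode the proteases that start the classical pathway. Both fell in RBPMS and QKI knockdown, but after RBFOX2 knockdown C1s alone fell. C1r had 151, 139 and 159 CPM in control replicates 1, 2 and 3, and 108, 105 and 106 CPM after RBPMS knockdown. It had 163, 157 and 146 CPM after RBFOX2 knockdown and 122, 131 and 117 CPM after QKI knockdown. The RBPMS and QKI libraries thus all lay below the lowest control library, while the RBFOX2 libraries overlapped with control. The log2 fold change of C1r was −0.49 ± 0.05 (SE, edgeR adjusted p = 2.44e-07) in RBPMS knockdown, −0.28 ± 0.05 (adjusted p = 1.07e-04) in QKI knockdown and 0.05 ± 0.05 (adjusted p = 0.402) in RBFOX2 knockdown.

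C1s had 13.5, 12.3 and 15.5 CPM in control replicates 1 to 3. The values were 10.8, 10.1 and 11.1 CPM in RBPMS, 9.54, 8.92 and 8.36 CPM in RBFOX2 and 10.5, 12.2 and 10.2 CPM in QKI knockdown. All 9 knockdown libraries lay below the 3 control libraries, although QKI-KD 2 was close to control 2. C1s fell by 0.63 ± 0.08 on the log2 scale (SE, edgeR adjusted p = 5.22e-06) in RBFOX2 knockdown, by 0.37 ± 0.08 (adjusted p = 0.00105) in RBPMS knockdown and by 0.33 ± 0.08 (adjusted p = 0.00221) in QKI knockdown. In the authors' normalised values the change in QKI knockdown was smaller, at −0.19. The lowest levels of this pair were therefore in different groups, RBPMS knockdown for C1r (106 ± 1.53 CPM, against 149.5 ± 9.71 in control) and RBFOX2 knockdown for C1s (8.94 ± 0.589 CPM, against 13.8 ± 1.61 in control).

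This difference between the partners appeared in the ratio of their counts within a library, which does not depend on library scaling. The ratio of C1r to C1s was 10.9 ± 0.578 (SD, n = 3) in control and 17.3 ± 0.271 in RBFOX2 knockdown, where the 3 libraries ranged from 17.0 to 17.6 without overlap with control (exact permutation test, two-sided, p = 0.1, the smallest that 3 against 3 can give). It was 9.95 ± 0.411 in RBPMS knockdown (p = 0.2 by the same exact test) and 11.2 ± 0.483 in QKI knockdown (p = 0.5), and in neither group did the mean move as far as in RBFOX2 knockdown. C1r and C1s are paralogues that lie next to each other in the genome, and how the counting treated reads shared by paralogues is not stated, so the split of reads between them is uncertain to that extent.

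**Figure D1:**
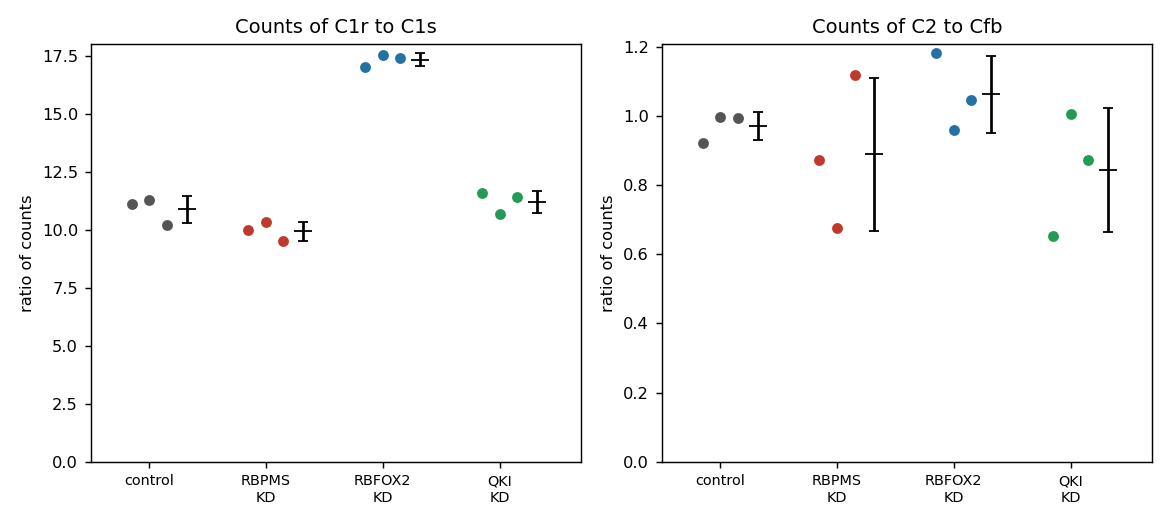
Ratio of counts within each library for C1r to C1s (left) and C2 to Cfb (right), by group on the horizontal axes, with points for the 3 libraries and bars for mean ± SD. The C1r to C1s ratio of RBFOX2 knockdown (17.3 ± 0.271) lies above all other groups, while the C2 to Cfb ratios of each knockdown overlap with control and spread more widely.

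Serping1, the inhibitor of C1r and C1s, was near the limit of counting. It had 2, 2 and 2 counts in control, 2, 0 and 0 in RBPMS, 0, 6 and 4 in RBFOX2 and 4, 4 and 2 in QKI knockdown, in the order of replicates. Of the 12 libraries 8 had 3 counts or fewer, the floor adopted here, and no fold change was computed. Low values in the table were even more often than single counting of fragments would give, so a count of 2 may stand for 1 fragment, for this gene and for C3. At totals of 111 M counts or more per library a change in this gene was not detectable.

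C2 and Cfb encode the proteases of the classical and the alternative C3-cleaving enzymes and share an ancestor and a neighbourhood in the genome. Both fell in RBPMS knockdown and neither passed the test in RBFOX2 knockdown. C2 had 1.37, 1.69 and 1.15 CPM in control and 0.846, 0.636 and 0.946 CPM in RBPMS knockdown. After RBFOX2 knockdown it had 1.74, 1.55 and 1.51 CPM and after QKI knockdown 0.845, 1.17 and 1.15 CPM. The RBPMS libraries lay below control, and the other knockdowns overlapped with it. C2 fell by 0.81 ± 0.18 on the log2 scale (SE, edgeR adjusted p = 0.00112) in RBPMS knockdown, while its 0.19 ± 0.17 (adjusted p = 0.365) in RBFOX2 knockdown did not pass. In QKI knockdown the change was −0.42 ± 0.18 (adjusted p = 0.0463), just inside the threshold, and this call was lost without control 2 (−0.26, adjusted p = 0.245), without QKI-KD 1 (−0.28, adjusted p = 0.210), without control 1 (−0.44, adjusted p = 0.0716), with library totals as the only scaling (−0.33, adjusted p = 0.108) and in the authors' normalised values (−0.41, adjusted p = 0.0637).

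Cfb had 1.49, 1.70 and 1.15 CPM in control and 0.968, 0.939 and 0.846 CPM in RBPMS knockdown, again with no overlap. It had 1.47, 1.62 and 1.45 CPM in RBFOX2 knockdown and 1.29, 1.16 and 1.32 CPM in QKI knockdown, all within the control range. Cfb fell by 0.66 ± 0.15 on the log2 scale (SE, edgeR adjusted p = 0.00105) in RBPMS knockdown. The changes of 0.06 ± 0.14 (adjusted p = 0.731) in RBFOX2 and −0.20 ± 0.14 (adjusted p = 0.227) in QKI knockdown did not pass, the latter except when control 3 was left out (−0.34, adjusted p = 0.0386). Control 3 had the lowest C2 and Cfb and control 2 the highest, so the controls spread more for this pair (SD of 0.274 and 0.275 CPM) than the RBFOX2 libraries did (0.119 and 0.0916 CPM). The ratio of C2 to Cfb counts was 0.971 ± 0.0414 in control, 0.890 ± 0.221 in RBPMS (exact permutation p = 0.6), 1.06 ± 0.112 in RBFOX2 (p = 0.3) and 0.844 ± 0.179 in QKI knockdown (p = 0.4). These values rest on 86 to 253 counts per gene and library, which may also stand for fewer fragments.

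C3, the central component on which all pathways converge, was hardly expressed. It had 8, 21 and 10 counts in control, 2, 22 and 6 in RBPMS, 18, 20 and 10 in RBFOX2 and 13, 0 and 18 in QKI knockdown. The replicates of each knockdown spread as widely as the groups, and the log2 fold changes of −0.19 ± 0.75, 0.29 ± 0.70 and −0.22 ± 0.74 (SE, edgeR adjusted p of 0.843, 0.748 and 0.811) show no difference that could be detected at this depth. The C/EBP match in its promoter therefore stands beside a gene at the edge of detection, and that of C1r beside a gene with 11468 or more counts in every library.

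**Figure D2:**
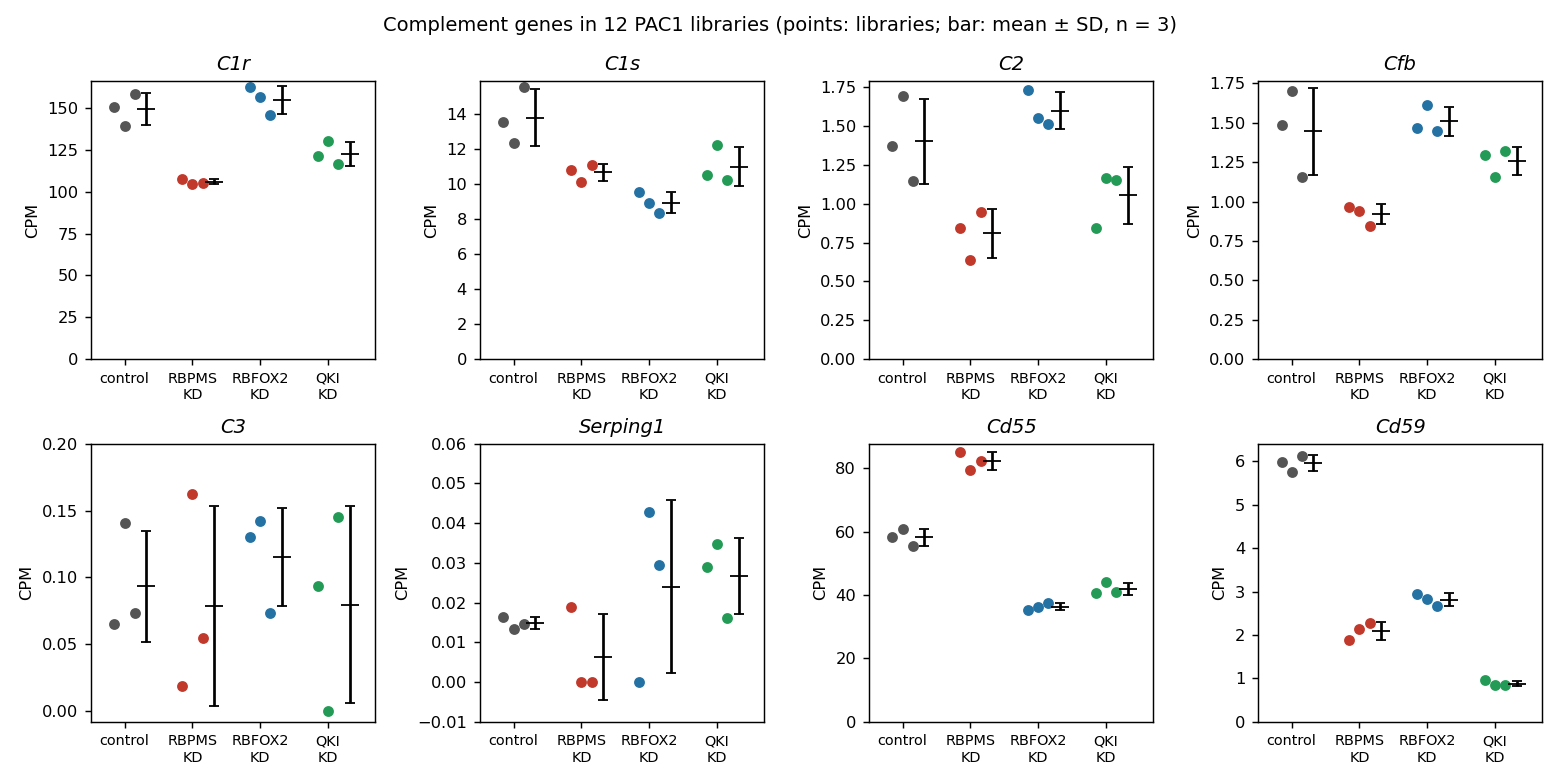
CPM of the 8 complement genes, 1 panel per gene with its own vertical scale, in the 4 groups on the horizontal axes, with points for libraries and bars for mean ± SD (n = 3). Cd59 and C1s lie below control in every knockdown library, Cd55 is above control in RBPMS knockdown and below it in the others, and C3 and Serping1 are near 0.

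Cd59, the inhibitor of the membrane attack complex, had the largest changes of the 7 tested genes and fell in all 3 knockdowns. It had 5.98, 5.76 and 6.13 CPM in control, which correspond to 732, 858 and 834 counts. The values were 1.88, 2.13 and 2.28 CPM in RBPMS, 2.95, 2.82 and 2.66 CPM in RBFOX2 and 0.953, 0.835 and 0.847 CPM in QKI knockdown. None of the 4 groups overlapped with another, and the order of the levels was control, RBFOX2, RBPMS and QKI knockdown. Relative to control, Cd59 was at 14.8% in QKI knockdown (log2 fold change −2.76 ± 0.10, SE, edgeR adjusted p = 1.31e-13), 35.3% in RBPMS knockdown (−1.50 ± 0.09, adjusted p = 2.76e-10) and 47.2% in RBFOX2 knockdown (−1.08 ± 0.09, adjusted p = 9.40e-09). Each pair of neighbours in that order also differed between knockdowns, RBPMS from RBFOX2 by −0.42 (adjusted p = 9.97e-04) and QKI from RBPMS by −1.25 (adjusted p = 1.81e-08).

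Cd55, the decay accelerating factor, changed in opposite directions. It had 58.4, 60.7 and 55.4 CPM in control and rose to 85.2, 79.4 and 82.4 CPM in RBPMS knockdown. It fell to 35.3, 36.3 and 37.4 CPM in RBFOX2 knockdown and to 40.7, 44.2 and 40.9 CPM in QKI knockdown. No group overlapped with another. The level in RBPMS knockdown was 141.5% of control (log2 fold change 0.50 ± 0.04, SE, edgeR adjusted p = 3.20e-08), against 62.5% in RBFOX2 knockdown (−0.68 ± 0.05, adjusted p = 6.97e-10) and 72.1% in QKI knockdown (−0.47 ± 0.05, adjusted p = 4.93e-08). The pair of surface regulators thus fell together in RBFOX2 and QKI knockdown, whereas in RBPMS knockdown Cd55 rose and Cd59 fell.

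Other membrane regulators were Cd46 and Cr1l, named here after their values were seen. CD46 is a cofactor for the inactivation of C3b and C4b, and Cr1l encodes the rodent regulator Crry, which acts on the C3-cleaving enzymes. Cr1l had 58.8, 57.8 and 56.5 CPM with control siRNA. QKI knockdown brought it to 30.3, 29.5 and 31.3 CPM, without overlap (log2 fold change −0.93, edgeR adjusted p = 3.52e-13). The RBPMS and RBFOX2 libraries had 52.3 to 57.4 CPM, with −0.11 (adjusted p = 0.0114, lost without control 1 at 0.0507) in RBPMS and −0.04 (adjusted p = 0.369) in RBFOX2 knockdown. Cd46 fell by 0.63 on the log2 scale (adjusted p = 1.28e-04) in QKI knockdown, from 2.17 ± 0.0821 to 1.40 ± 0.0818 CPM, and did not pass in RBPMS (−0.14, adjusted p = 0.319) or RBFOX2 knockdown (−0.12, adjusted p = 0.378). Cd55, Cd59, Cd46 and Cr1l thus all fell in QKI knockdown, where 34.0% of all genes tested fell and where Csmd1, a further membrane protein with complement control domains, rose by 0.73.

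Counted over the 7 tested genes, and with a gene called at an adjusted p below 0.05 and an absolute log2 fold change above 1, Cd59 was the only call in each knockdown, where 9.66% (RBPMS), 11.7% (RBFOX2) and 17.5% (QKI) of all genes tested were called. By the adjusted p alone, 5 fell (C1r, C1s, C2, Cfb and Cd59) and 1 rose (Cd55) in RBPMS knockdown, against 29.0% lower and 30.4% higher among all genes. In RBFOX2 knockdown 3 fell (C1s, Cd55 and Cd59) and 0 rose, against 30.1% and 30.1%, and in QKI knockdown 5 fell (C1r, C1s, C2, Cd55 and Cd59) and 0 rose, against 34.0% and 32.9%. At an unadjusted p below 0.05 the counts in either direction were 6, 3 and 5, and DESeq2 gave the same number in each direction as edgeR. The median log2 fold change of the 7 was −0.49, 0.05 and −0.33 in RBPMS, RBFOX2 and QKI knockdown, and that of all genes tested 0.0085, 0.015 and 0.0070. The 3 comparisons share the control libraries, so they are not independent of each other.

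**Figure D3:**
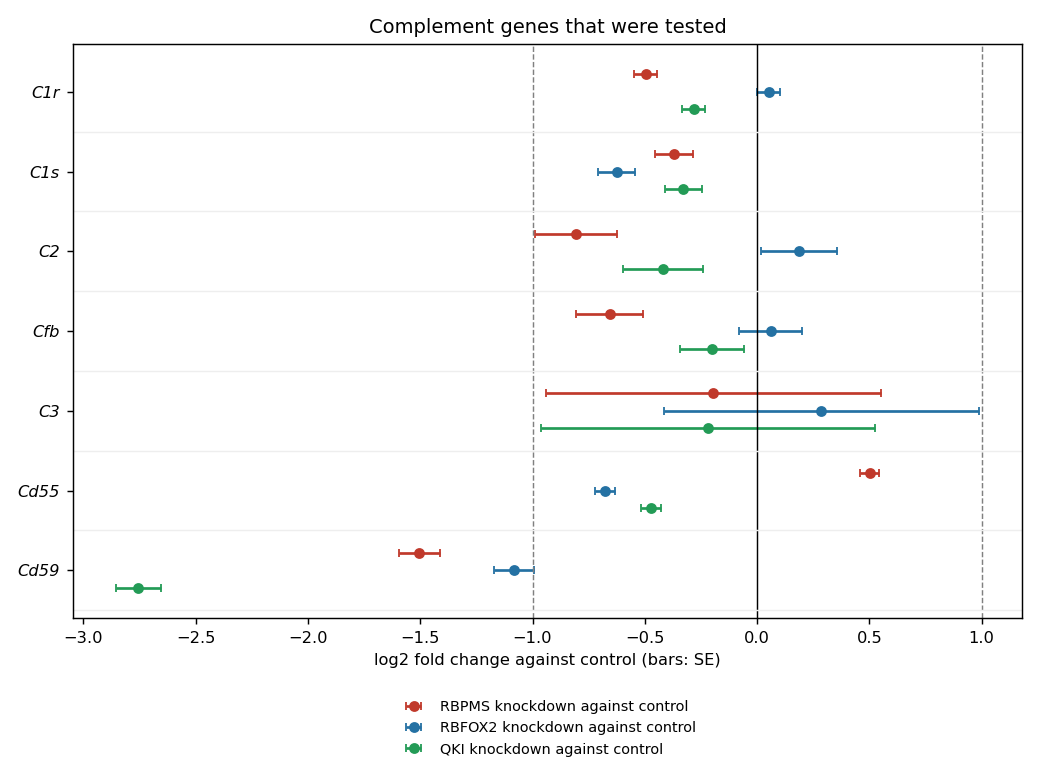
Log2 fold change of the 7 tested complement genes against control in each knockdown, with bars for SE and dashed lines at the threshold of 1. Cd59 alone lies beyond −1 (−1.50, −1.08 and −2.76), Cd55 lies right of 0 in RBPMS knockdown and left of it in the others, and the wide bars of C3 span 0.

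Direct comparisons between knockdowns do not use the control levels, although scaling and spread were estimated over all 12 libraries. Between RBPMS and RBFOX2 knockdown 6 of the 7 genes differed at an adjusted p below 0.05 (56.7% of all genes), with C1r (−0.55, edgeR adjusted p = 1.04e-07), C2 (−0.99, adjusted p = 1.78e-04), Cfb (−0.72, adjusted p = 5.25e-04) and Cd59 lower in RBPMS knockdown. Cd55 was higher in RBPMS knockdown by 1.18 (adjusted p = 1.16e-12), the only difference of the 6 above 1, and without RBPMS-KD 1, RBPMS-KD 3, RBFOX2-KD 2 or RBFOX2-KD 3 that of C2 also passed, at −1.01 to −1.12. The difference of C1s (0.26, adjusted p = 0.0173) was lost with library totals as the only scaling (0.16, adjusted p = 0.125), without RBFOX2-KD 3 (0.21, adjusted p = 0.0773) and without RBPMS-KD 3 (0.23, adjusted p = 0.0586). The proteases C1r, C2 and Cfb were thus each lower after loss of RBPMS than after loss of RBFOX2, and C1s was the exception.

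Between QKI and RBPMS knockdown 4 of the 7 differed (61.0% of all genes). C1r was higher in QKI knockdown by 0.21 (edgeR adjusted p = 0.00170, and by 0.34 with library totals only) and Cfb by 0.45 (adjusted p = 0.0154), the latter lost without RBPMS-KD 3 (0.40, adjusted p = 0.0561) and in the authors' normalised values (0.36, adjusted p = 0.0514). Cd55 was lower by 0.97 (adjusted p = 5.46e-12), as was Cd59 above. C2 did not pass (0.39, adjusted p = 0.0887) but did so with library totals only (0.52, adjusted p = 0.0261), without RBPMS-KD 3 (0.51, adjusted p = 0.0473) and without QKI-KD 1 (0.53, adjusted p = 0.0299). C1s differed by 0.04 (adjusted p = 0.692).

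Between QKI and RBFOX2 knockdown 5 of the 7 differed (68.5% of all genes). C1r (−0.33, edgeR adjusted p = 1.72e-05), C2 (−0.61, adjusted p = 0.00568) and Cd59 (−1.67, adjusted p = 1.70e-10) were lower in QKI knockdown, and C1s (0.30, adjusted p = 0.00515, and 0.47 in the authors' normalised values) and Cd55 (0.21, adjusted p = 6.20e-04) were higher. Cfb did not pass (−0.26, adjusted p = 0.113). C3 did not pass in any direct comparison, with log2 differences of −0.48, −0.02 and −0.50 and adjusted p of 0.598, 0.982 and 0.556.

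The remaining complement genes formed a list of 46, of which 45 were in the table and 23 could be tested. The other 22 had at most 16 counts in any library. They included C1qa, C1qb and C1qc, the subunits that recognise targets in the C1 complex (at most 2 counts). The terminal components C5, C6, C7, C8a, C8b and C9 (at most 8) were also among them. C8g, the small subunit of C8, was the exception among terminal components, with 203 to 489 counts per library and a rise of 0.92 on the log2 scale in RBFOX2 knockdown (edgeR adjusted p = 3.12e-07). Of the 23 tested, 9 rose and 4 fell in RBPMS knockdown, 9 rose and 3 fell in RBFOX2 knockdown and 9 rose and 5 fell in QKI knockdown, with 9, 6 and 6 past the fold threshold as well. Among all genes tested 30.4% rose and 29.0% fell in RBPMS, 30.1% and 30.1% in RBFOX2 and 32.9% and 34.0% in QKI knockdown, and 9.66%, 11.7% and 17.5% were called. The median log2 fold change of the list was −0.04, 0.52 and 0.19.

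Among initiators, the lectin pathway protease Masp1 rose from 1.24 ± 0.410 CPM to 6.09 ± 0.789 CPM in RBFOX2 knockdown (log2 fold change 2.30) and to 3.71 ± 0.141 CPM in QKI knockdown (1.58). In RBPMS knockdown it did not pass (0.47, edgeR adjusted p = 0.0747), although it did without control 3 (0.75, adjusted p = 0.00712). Masp2, the other protease of that pathway and the one that cleaves C4 and C2, rose by 0.44, 0.48 and 1.28 in RBPMS, RBFOX2 and QKI knockdown. Its control level was 2.97 ± 0.177 CPM, and the QKI libraries had 7.11 to 7.28 CPM without overlap. C4a, the substrate of C1s, was named after its values were seen and fell by 0.61 on the log2 scale (adjusted p = 3.65e-04) in RBPMS knockdown, while its changes of −0.34 (adjusted p = 0.0208) and −0.30 (adjusted p = 0.0335) in RBFOX2 and QKI knockdown were lost under several alternatives. Masp2 thus rose in all 3 knockdowns and Masp1 in 2, while C4a fell in RBPMS knockdown.

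Among other regulators, Clu, whose product clusterin binds the terminal complex, rose in RBFOX2 (0.52) and QKI knockdown (1.15, from 79.9 ± 3.15 to 177 ± 9.07 CPM) and not in RBPMS knockdown (−0.04, adjusted p = 0.509). Csmd1 rose by 1.01 in RBPMS knockdown (0.88 without control 3) and by 0.73 in QKI knockdown and fell by 0.94 in RBFOX2 knockdown.

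Of 5 tested receptors, all rose in RBPMS knockdown, 4 rose and 1 fell in RBFOX2 knockdown and 3 rose and 1 fell in QKI knockdown, against 30.4%, 30.1% and 32.9% of all genes that rose. Itgax, the alpha chain of complement receptor 4, had 0.335, 0.470 and 0.279 CPM in control and 2.11 to 3.24 CPM in the 9 knockdown libraries (log2 fold changes of 2.63, 2.85 and 2.97). Its beta chain partner Itgb2 had at most 9 counts in any library. C3ar1, the receptor for the anaphylatoxin C3a, rose from 1.78 ± 0.107 CPM to 4.28 ± 0.311 CPM in RBPMS (1.27) and 6.20 ± 0.267 CPM in RBFOX2 knockdown (1.80), and in QKI knockdown did not pass (−0.22, edgeR adjusted p = 0.0569), except without control 2 or QKI-KD 2. C5ar2, a receptor for C5a, rose in RBPMS knockdown (0.67) and fell in RBFOX2 (−1.60) and QKI knockdown (−0.39). The sign pattern of C5ar2 is the one seen for Cd55.

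C1qbp, which encodes a mostly mitochondrial protein that can bind C1q, rose by 1.18, 1.07 and 1.21 from 95.7 ± 3.66 CPM in control. Cd93, a membrane glycoprotein of endothelial and myeloid cells, rose by 1.02 in RBPMS (0.88 without control 2) and by 0.50 in RBFOX2 knockdown (0.36, edgeR adjusted p = 0.0581 without control 2), and its 0.36 in QKI knockdown (adjusted p = 0.0492) was lost under most alternatives. The summed level of 10 leukocyte markers was also higher beside these receptors, with 38.5 to 39.99 CPM in control and 53.1 to 60.7 CPM in RBPMS, 53.9 to 55.2 CPM in RBFOX2 and 44.2 to 45.5 CPM in QKI knockdown. In each knockdown 2 of the 6 markers tested rose. Of all genes tested 30.4%, 30.1% and 32.9% rose in RBPMS, RBFOX2 and QKI knockdown, a similar share. The markers that rose were Cd14 and Csf1r in RBPMS and RBFOX2 knockdown and Csf1r and Cd68 in QKI knockdown. Csf1r, the receptor of a macrophage growth factor, went from 0.405 CPM to 0.904, 0.684 and 3.63 CPM (log2 fold changes of 1.17, 0.76 and 3.17), and Cd68 rose by 0.93 in QKI knockdown. Most of the sum was Cd14, whose mean level was 37.0 CPM with control siRNA and 52.9, 51.6 and 38.4 CPM with siRNA against RBPMS, RBFOX2 and QKI. The sum of 5 endothelial markers was 8.73 to 10.8 CPM in control. It was 8.84 to 9.12 CPM in RBPMS, 5.18 to 5.76 CPM in RBFOX2 and 6.46 to 6.75 CPM in QKI knockdown. For 4 epithelial markers the sum was 0.131 to 0.228 CPM in control. It was 0.0940 to 0.148 CPM in RBPMS, 0.213 to 0.217 CPM in RBFOX2 and 0.686 to 1.06 CPM in QKI knockdown.

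**Figure D4:**
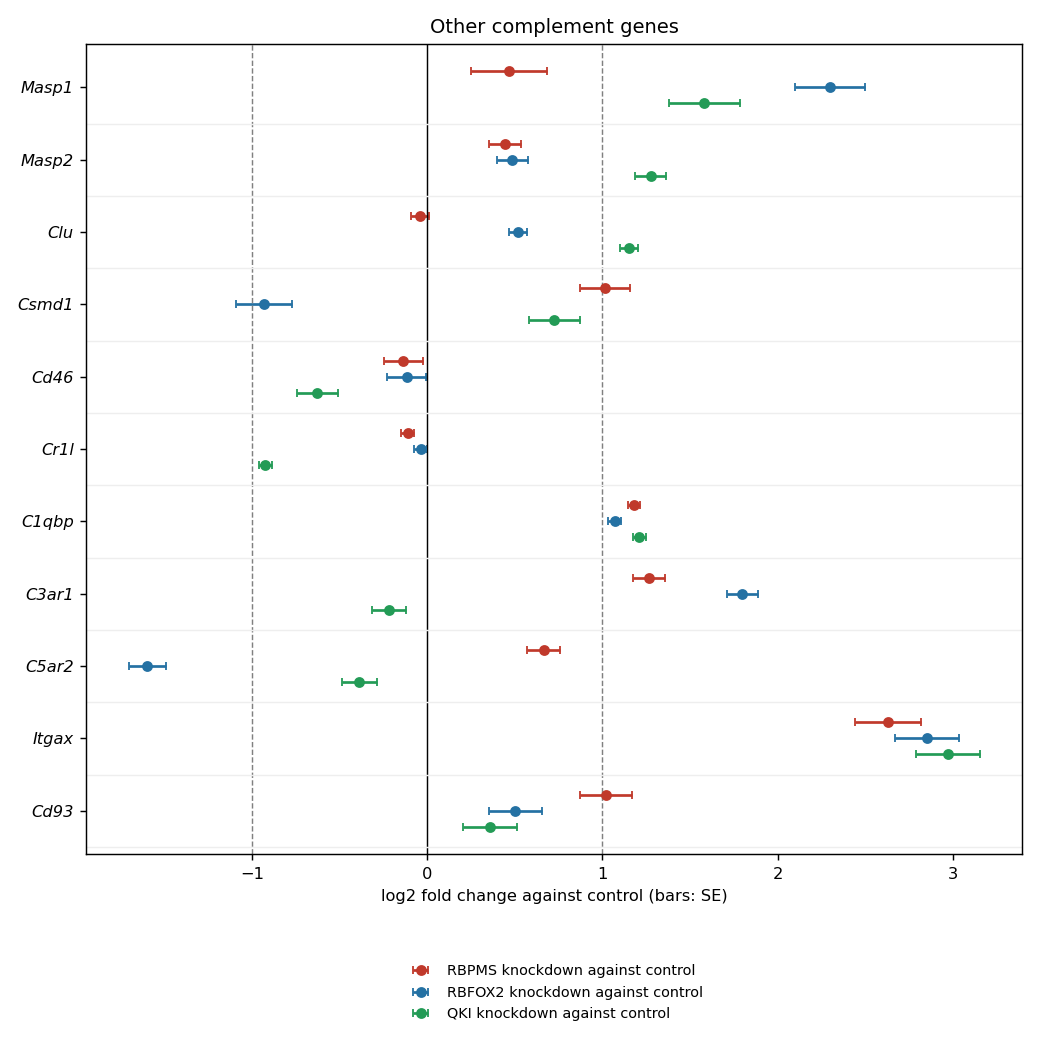
Log2 fold change against control (bars: SE) of other complement genes named in the text, in each knockdown, with dashed lines at the threshold of 1. Itgax and C1qbp lie beyond 1 in all knockdowns, Cr1l lies near −1 in QKI knockdown alone (−0.93), and C5ar2 lies right of 0 in RBPMS knockdown only.

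Complement genes are known targets of interferon and cytokine signalling, and 2 further lists described these. Of 12 transcription factors and related regulators, 5 rose and 3 fell in RBPMS knockdown, 6 rose and 3 fell in RBFOX2 knockdown and 2 rose and 7 fell in QKI knockdown, with medians of 0.12, 0.12 and −0.25. Of all genes tested 30.4%, 30.1% and 32.9% rose and 29.0%, 30.1% and 34.0% fell, so several of these shares are close to those of all genes. Stat2, a factor of type I interferon signalling, rose in all knockdowns, by 0.44, 1.05 and 0.65. Of 12 genes induced by interferon-gamma, 2 rose and 7 fell in RBPMS, 3 rose and 4 fell in RBFOX2 and 5 rose and 4 fell in QKI knockdown (medians −0.42, −0.03 and 0.11). The RBFOX2 and QKI counts are close to the same shares over all genes. Cxcl10, a chemokine of that list, rose by 1.29, 1.16 and 0.46, or by 0.95 and 0.26 in RBFOX2 and QKI knockdown without control 3.

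C1r, C1s and Cd55 were the complement genes that averaged 5 CPM or more, and for these 3 the genes most like them across the 12 libraries were sought among 10044 candidates by Pearson's r of log2 CPM. The closest were Dmpk (0.97) and St3gal2 (0.97) for C1r, Armh3 (0.93) and S1pr3 (0.93) for C1s, and Rnf19b (0.99) and Elk4 (0.99) for Cd55. The libraries of 1 group share their treatment, so these coefficients describe mostly the order of 4 group levels. Dmpk, a kinase gene, moved further than C1r after RBPMS (−1.39 against −0.49) and QKI knockdown (−0.98 against −0.28). S1pr3, a receptor for sphingosine 1-phosphate, moved further than C1s in RBFOX2 knockdown (−1.57 against −0.63).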

How the data were processed

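Poly(A)-selected RNA of rat PAC1 cells was sequenced in 12 libraries, 3 for each of 4 siRNA groups, with groups and replicate numbers taken from the labels. The raw counts per gene deposited by the authors were, per the study's methods, made from subsampled reads aligned with STAR to mRatBN7.2 and counted with featureCounts on a RefSeq annotation. Whether counting used strand and how shared reads were treated is not stated. The authors also deposited a normalised signal, made from those counts by a noise filter and quantile normalisation. Totals differed between libraries (111 to 152 M), although the methods describe subsampling to a common depth. All of them also exceeded the number of reads given there for that depth. Whether the deposited counts came from subsampled reads is therefore uncertain. Of values from 1 to 19, 68.1% were even, an excess that single counting of fragments would not give, so a low count may stand for fewer fragments. The counts were used as deposited, with halved counts as an alternative.

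The edgeR package 4.0.16 (R 4.3.3) was used on the counts (filterByExpr, TMM, glmQLFit and glmQLFTest, two-sided, 1 coefficient per group, all 12 libraries), which kept 18438 of 33294 genes and 99.99% of counts, with a common dispersion of 0.00241. P-values were adjusted by Benjamini-Hochberg over all genes tested. Called means an adjusted p below 0.05 and an absolute log2 fold change above 1, and rose or fell means an adjusted p below 0.05. Values are mean ± SD of CPM (n = 3) unless SE is given. The study states biological replicates without naming their source, so p-values measure the spread between these libraries, and counting limits cover counting error only. Within groups the chi-square per degree of freedom between replicates was 4.64 to 57.8, so no library was a duplicate. The highest values, 57.8 and 45.6, were those of RBPMS-KD 2 against RBPMS-KD 1 and RBPMS-KD 3. RBPMS-KD 1 against RBPMS-KD 3 gave 9.27. The fit was checked on simulated counts.

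The members and lists were chosen with earlier results of these data known. The text names the 8 genes, the siRNA targets, the wider complement genes called in at least 1 knockdown with a mean of at least 1 CPM, and those factors and inducible genes that met the same rule, of which 2 are not reported here. Promoters came from RefSeq (GRCr8) and matched 3 of the 8 symbols. The authors' build differs, and their reads were not placed on these coordinates. Alternatives of scaling and filter were RLE size factors within edgeR, library totals only, no filter and a mean of at least 200 counts. Others were the replicate number as a block, adjusted p alone, only the 6 libraries compared and leaving out each library. The tools DESeq2 1.42.0, and limma 3.58.1 on the log2 of the normalised values plus 1, were also used.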

Additional observations from a re-analysis of the deposited data

How the results depend on the processing

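Results for single genes were recomputed under another scaling, filter, tool or set of libraries. Of these, 850 stayed on the same side of the adjusted p threshold, 3 passed it newly and 13 lost it. With 1 library left out, 565 stayed on the same side, 8 passed newly and 21 no longer passed. Counting the fold threshold as well, 1 call was gained and 3 were lost under the former alternatives and 7 gained and 9 lost with 1 library left out, among them Csmd1 and Cd93 in RBPMS knockdown (0.97 and 0.98 with library totals only). None reversed while called. Results that did not pass could change direction, as C3 did in RBPMS knockdown (between −1.33 and 0.24). Cd59 lay between −1.57 and −1.38 in RBPMS, −1.13 and −1.03 in RBFOX2 and −2.82 and −2.67 in QKI knockdown, and Cd55 between 0.46 and 0.53, −0.72 and −0.62, and −0.51 and −0.39. With the adjusted p alone, the calls among the 7 genes went from 1 each to 6, 3 and 5 in RBPMS, RBFOX2 and QKI knockdown and to 6, 4 and 5 in RBPMS against RBFOX2, QKI against RBPMS and QKI against RBFOX2, and those of the wider list from 6 to 12 in RBFOX2 and from 6 to 14 in QKI knockdown. With library totals only, RBPMS against RBFOX2 gave 2 calls (C2 at −1.09 beside Cd55). Leaving out 1 library gave 1 to 2 calls in RBPMS against RBFOX2, where C2 joined Cd55, and 1 to 2 in QKI against RBPMS, where Cd55 (−1.01 without QKI-KD 2) joined Cd59. The replicate numbers did not pair the libraries. The correlation of same-numbered deviations ran from −0.344 to 0.246, with 4 of 18 pairs over 0.1, and 12 of 36 best correlations were with the own number. With the replicate block the calls among the 7 genes stayed at 1 each, and in QKI knockdown C2 (−0.42, adjusted p = 0.0647) and Cd93 (0.35, adjusted p = 0.0690) no longer passed. Depth limits C3 and Serping1, whose counts lay between 0 and 22.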
